A study of Mus musculus with 48 samples.

Results

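Neurog3, Fev, Pax4, Irx1 and Irx2 are 5 transcription factor genes of the endocrine pancreas, and they are described here through the repressive histone mark H3K27me3. They were taken by gene symbol from a table of H3K27me3 to input ratios, in which all 5 of 5 were found among 24466 genes. Chromatin immunoprecipitation sequencing (ChIP-seq) of this mark was set against input DNA in 3 mouse cell types. Mature beta cells were sorted at 8 weeks by the red fluorescent insulin reporter Ins-RFP, hepatocytes came from adults of 8 weeks, and definitive endoderm, the embryonic layer that gives rise to liver and pancreas, was sorted at e8.25 with an antibody to the surface antigen ENDM1. For the embryos, B6C3F1 females were bred to C3H, Pdx1-eGFP or Ins-RFP males, and the labels used here name no strain for the adult hepatocytes. Each cell type had 2 ChIP libraries and 2 inputs, making 12 of the 48 libraries in the series, and the table gives 1 pooled ratio per gene and cell type.

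No value therefore carries a replicate error, read depth is unknown, and no test was possible. Ratios are linear and were quantile-normalized by the authors, so the 3 columns share 1 distribution, with a median of 0.711 and a 95th percentile of 3.18. A ratio therefore ranks a gene among the others of its cell type, and total H3K27me3 cannot be compared. Differences are given as log2(ratio + 0.0711), with the cell type named first minus the other, and a difference of at least 1 in size, 2-fold on this scale, was needed to count a gene as higher or lower. In sorted populations, fewer cells with the mark and less mark per cell cannot be told apart. Of 9 beta cell factors, 0 were in the top 5% of genes in beta cells, against 7 in hepatocytes, and of 8 hepatocyte genes, 0 were in the top 5% in hepatocytes. Islet hormone genes did not show the beta cell label, since 5 of 7 were among the top 25% in beta cells and 5 in hepatocytes. Ins1 had 1.56 and Ins2 0.59 in beta cells, against 1.38 and 1.04 in hepatocytes. For endoderm the mark does not show the label, since 5 of 8 endoderm genes were among the top 25% of genes there. In each adult cell type 4 of 8 were among the top 25%. By the top 5%, 1 of 8 was counted in endoderm, Foxa1, with a ratio of 72.6. Median ratios of the genes of other cell types that a sort could carry along were 2.97 in beta cells, 0.97 in hepatocytes and 1.55 in endoderm for 6 acinar genes, 1.03, 0.75 and 0.95 for 5 blood genes, and 1.39, 1.21 and 0.91 for 4 endothelial genes. The part of such cells in the results was not tested.

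The members act at different steps of endocrine development in the pancreas, and not all in the same cell lineage. Neurog3 is the basic helix-loop-helix (bHLH) factor that commits pancreatic progenitors to an endocrine fate, and its product is transient. Fev, an ETS factor also known as Pet1, marks the progenitors that follow Neurog3 in mouse and also directs serotonin neurons. Pax4, a paired homeobox factor, favours beta and delta cells over alpha cells in mouse. Irx1 and Irx2 are Iroquois homeobox factors found in glucagon-producing alpha cells of the mouse. H3K27me3 is deposited by Polycomb repressive complex 2, which in mammals is typically found at CpG-rich promoters of silent developmental regulators.

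Promoter windows from RefSeq (build GRCm38.p6) are shown for Neurog3, Fev and Irx2, because CpG-rich sequence is known to go with this mark. Each runs 250 bases up to a transcript start, 5′ to 3′ on the gene's strand, with every CpG in capitals. They cover chr10:62132840-62133089 on the plus strand, chr1:74885409-74885658 on the minus strand and chr13:72628570-72628819 on the plus strand. Pax4 and Irx1 are named only.
Neurog3: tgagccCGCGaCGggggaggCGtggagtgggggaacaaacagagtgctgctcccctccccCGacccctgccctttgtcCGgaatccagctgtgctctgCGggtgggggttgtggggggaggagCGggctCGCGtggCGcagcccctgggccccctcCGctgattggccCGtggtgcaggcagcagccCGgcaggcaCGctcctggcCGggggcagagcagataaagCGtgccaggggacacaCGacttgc
Fev: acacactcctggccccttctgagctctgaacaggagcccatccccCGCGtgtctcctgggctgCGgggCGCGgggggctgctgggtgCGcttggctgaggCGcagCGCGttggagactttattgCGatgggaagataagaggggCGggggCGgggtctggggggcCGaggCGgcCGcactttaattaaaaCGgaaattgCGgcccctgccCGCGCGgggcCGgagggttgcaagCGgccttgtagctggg
Irx2: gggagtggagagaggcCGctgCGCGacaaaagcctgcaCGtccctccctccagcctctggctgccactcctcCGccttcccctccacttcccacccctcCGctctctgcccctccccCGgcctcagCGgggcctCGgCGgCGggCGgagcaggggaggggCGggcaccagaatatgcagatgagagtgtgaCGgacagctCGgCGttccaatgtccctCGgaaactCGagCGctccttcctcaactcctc
The Neurog3 window holds 18 CpG, the Fev window 22 and the Irx2 window 19, against a median of 6 over 32851 RefSeq windows. Over the 17410 genes with both a window and a ratio, the median was 10. Those in the top 5% by ratio had medians of 7 in beta cells, 10 in hepatocytes and 11 in endoderm. As many CpG or more were in 21.7% of all windows for Neurog3, 14.8% for Fev and 19.7% for Irx2. Their GC content was 71.2%, 68.0% and 68.4% in the same order, and CpG observed over expected was 0.58, 0.79 and 0.67. A high CpG number did not by itself go with a high ratio: the 4080 genes with at least 20 CpG had median ratios of 0.53 in beta cells, 0.50 in hepatocytes and 0.57 in endoderm, below those of all 17410 genes with a window (0.69, 0.68 and 0.70). The submitters' processing notes name mm9 and the region measured for a gene is not stated, so it is not known whether these windows lie within it.

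Of the 5 genes, Neurog3, Fev, Irx1 and Irx2 stood in the top 5% of all genes in beta cells and in hepatocytes, and Neurog3, Fev and Irx2 also in endoderm. Neurog3 had ratios of 4.14 in beta cells, 8.02 in hepatocytes and 7.86 in endoderm. The hepatocyte and endoderm ratios were close, and beta cells were at 51.5% of the hepatocyte ratio. Its percentiles among all genes were 96.8 in beta cells, 99.1 in hepatocytes and 99.1 in endoderm. Fev had 3.85 in beta cells, 6.61 in hepatocytes and 9.18 in endoderm, where it was the most marked of the 5. Its percentiles were 96.4, 98.7 and 99.3, so a ratio 2.39 times lower in beta cells than in endoderm spans a small part of the ranking.

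Irx1 had ratios of 4.50 in beta cells, 6.70 in hepatocytes and 2.65 in endoderm. It was the 1 member with its lowest ratio in endoderm, at the 93.2nd percentile there, against the 97.2nd in beta cells and the 98.7th in hepatocytes. Irx2 had 4.20 in beta cells, 6.91 in hepatocytes and 5.15 in endoderm, with percentiles of 96.9, 98.8 and 97.8. In the adult cell types the 2 Iroquois genes were thus nearly level with each other, and in endoderm Irx2 was the higher. Pax4 was the least marked of the 5 in each cell type, with 1.25 in beta cells, 2.06 in hepatocytes and 1.60 in endoderm. Its percentiles of 74.4, 89.2 and 82.8 put it above the median of all genes and under the top 5% in each.

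**Figure D1:**
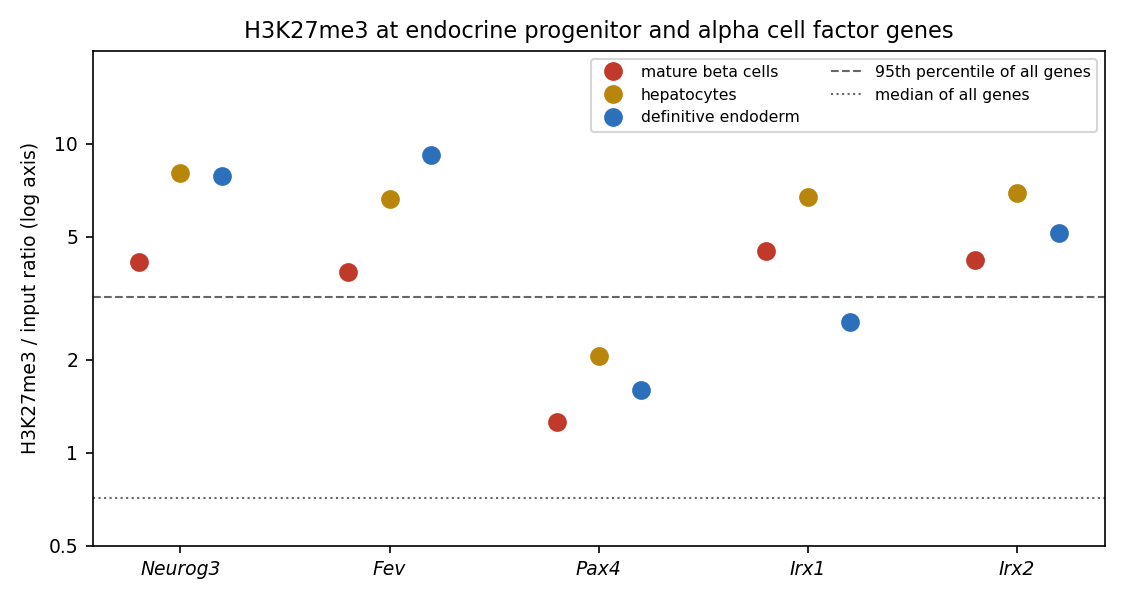
Ratio of H3K27me3 to input (log axis) of each gene in mature beta cells, hepatocytes and definitive endoderm, 1 pooled value per point with no replicate error. Every point lies above the median of all genes (0.711, dotted line), and Pax4 and the endoderm point of Irx1 lie under the 95th percentile (3.18, dashed line).

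Against endoderm, Fev was the 1 member counted as lower in beta cells, with a log2 difference of -1.24. Neurog3 was just short of the threshold at -0.91, Pax4 had -0.33 and Irx2 -0.29, and Irx1 went the other way with 0.75. The count of 1 lower and 0 higher of 5 stands beside 15.1% lower and 14.1% higher among all genes, so it is near the background. The median difference of the 5 was -0.33, against -0.01 over all genes. Of all genes counted, 48.3% were higher. This balance depends on the scale: with the commonest value of each column set to 1, the all-gene median became 0.38 and 70.9% of the genes counted were higher. On that scale Fev had -0.80 and was no longer counted, Irx1 had 1.18 and was counted as higher, and Pax4 (0.09) and Irx2 (0.15) had the opposite sign.

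In hepatocytes against endoderm, Irx1 was higher with a log2 difference of 1.31. The other 4 were under the threshold, with 0.42 for Irx2, 0.35 for Pax4, 0.03 for Neurog3 and -0.47 for Fev. The count of 1 higher and 0 lower stands beside 12.8% higher and 13.3% lower among all genes, again near the background. Of all genes counted here, 48.9% were higher, against 73.4% with the commonest value set to 1, where the all-gene median was 0.38 in place of -0.03. Both comparisons use the same endoderm values.

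Between the adult cell types, none of the 5 reached the threshold. All 5 had lower ratios in beta cells than in hepatocytes, as did 11332 of all 24466 genes. The log2 differences, beta cells minus hepatocytes, were -0.94 for Neurog3, -0.77 for Fev, -0.71 for Irx2, -0.69 for Pax4 and -0.57 for Irx1. The count of 0 lower and 0 higher stands beside 13.1% lower and 12.5% higher among all genes. A difference of -0.57 or less was found at 21.6% of all genes. This cut is the value of Irx1, the smallest difference of the 5 in size, so all 5 meet it by construction. It was found at 55.8% of the 1223 genes in the top 5% of hepatocytes, which hold 4 of the 5 members, and at 37.9% of the 639 genes in the top 5% of both hepatocytes and endoderm, which hold 3. Both sets were chosen by a high hepatocyte ratio, which favours negative differences. In the top 5% of endoderm, a choice that does not use the hepatocyte ratio, the share was 34.3% and the median difference was -0.12. This comparison moved little with the scale, with an all-gene median of 0.04 as reported and 0.02 with the commonest value set to 1.

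Presence in the top 5% in beta cells was less uniform. Of the 1223 genes in the top 5% of endoderm, 46.0% were in the top 5% of beta cells, and 21.1% were under the median there. Neurog3, Fev and Irx2 were in the top 5% of both. Of the 639 genes in the top 5% of both endoderm and hepatocytes, 67.6% were also in that of beta cells and 11.4% were under the median.

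Factors of mature beta cells were set beside the members. All 9 of 9 beta cell factors were lower in beta cells than in hepatocytes, beside 13.1% of all genes. Their differences lay between -4.65 and -1.30 with a median of -3.17, against 0.04 over all genes. Pdx1, the regulator of pancreas formation and of insulin transcription, had 0.22 in beta cells, 7.18 in hepatocytes and 6.39 in endoderm. Nkx2-2, a homeobox factor of beta cells, had 0.23, 5.72 and 6.18 in the same order. Neurod1, a bHLH factor switched on by Neurog3, was intermediate, with 1.65 in beta cells, 4.18 in hepatocytes and 6.15 in endoderm. Neurog3 and Nkx2-2 thus had similar ratios in endoderm, and in beta cells one was at the 96.8th percentile and the other at the 6.67th. No test of the difference between these genes was possible.

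Genes of endocrine commitment, the step that Neurog3 starts, had lower ratios in beta cells than in endoderm at 9 of 12, and higher ones at 0, with a median of -1.57. With the commonest value set to 1, 6 of 12 were lower and 0 higher. Insm1, a zinc finger factor of endocrine cells, had 0.52 in beta cells, 9.11 in hepatocytes and 105 in endoderm. Rfx6, a winged helix factor of endocrine cells, had 0.36, 0.81 and 0.92. Against hepatocytes, 9 of 12 were lower in beta cells and 0 were higher. In hepatocytes against endoderm 1 of 12 was higher and 3 were lower. Among all genes, 15.1% were lower and 14.1% higher in beta cells than in endoderm. The shares were 13.1% and 12.5% for beta cells against hepatocytes, and 13.3% and 12.8% for hepatocytes against endoderm. Neurod2 was the 1 gene of this list in the top 5% of beta cells (5.76, against 9.30 in hepatocytes and 191 in endoderm).

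**Figure D2:**
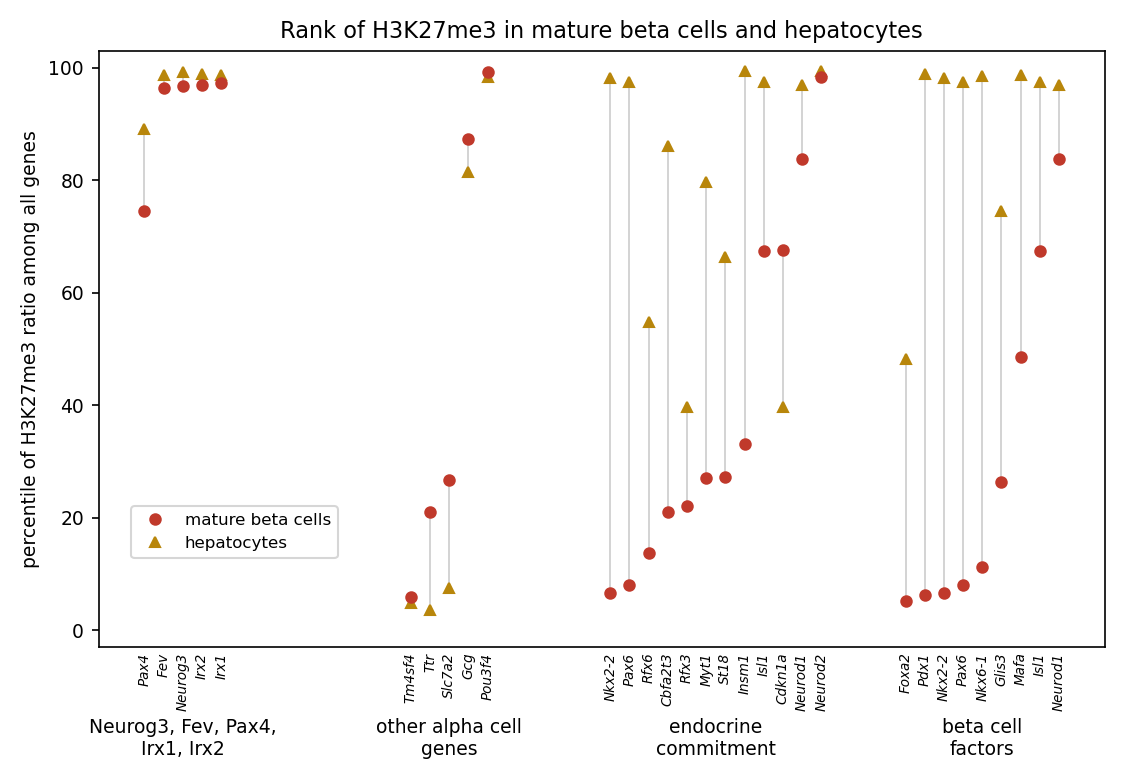
Percentile of the H3K27me3 ratio among all genes in mature beta cells (circles) and hepatocytes (triangles), joined by a line for each gene, 1 pooled value per point. Neurog3, Fev, Irx1 and Irx2 lie above the 95th percentile in both, while Pdx1, Nkx2-2, Pax6 and Nkx6-1 lie below the 12th in beta cells and above the 97th in hepatocytes. Neurod1, Isl1, Nkx2-2 and Pax6 each appear in 2 of the plotted lists.

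Upstream of Neurog3, progenitor factors and Notch pathway genes showed no common direction. The 12 genes include Foxa2 and Glis3, which are also among the 9 beta cell factors. Of the 12, beta cells had higher ratios than endoderm at 3 and lower ones at 3, with a median of -0.14, which was 0.28 with the commonest value set to 1. Beta cells against hepatocytes gave 2 higher and 2 lower, the 2 lower being Foxa2 and Glis3, and hepatocytes against endoderm gave 2 higher and 4 lower. The all-gene shares higher and lower were 14.1% and 15.1% for beta cells against endoderm, and 12.5% and 13.1% against hepatocytes. For hepatocytes against endoderm they were 12.8% and 13.3%. Sox9, a factor of pancreatic progenitors and ducts, had 6.74 in beta cells, 3.34 in hepatocytes and 1.15 in endoderm, and was the 1 gene of the list in the top 5% of beta cells. Dll1, a Notch ligand, had 0.81, 0.54 and 3.14, and was lower in both adult cell types than in endoderm. Hes1, the Notch target that represses Neurog3, had low ratios in each, with 0.21, 0.19 and 0.05.

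Among alpha cell genes other than the members, Pou3f4, a POU homeobox factor, was the most marked. It had its highest ratio in beta cells, at 8.09, against 5.98 in hepatocytes and 4.67 in endoderm. Pou3f4 lies on the X chromosome. Of 41 X-linked genes listed by hand, 33 had lower ratios in beta cells when set against endoderm and 36 when set against hepatocytes. Their medians were -1.60 and -1.77, and the shares lower among all genes were 15.1% and 13.1%. The part of X linkage in the Pou3f4 values was not tested.

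Gcg, the glucagon gene, had 1.89 in beta cells, 1.52 in hepatocytes and 1.05 in endoderm. Tm4sf4, a gene for a tetraspan membrane protein, was low in both adult cell types (0.20 in beta cells, 0.17 in hepatocytes and 1.05 in endoderm). Of the 5 alpha cell genes described here besides the members, 2 had lower and 0 had higher ratios in beta cells than in endoderm, against 2 lower and 2 higher with the commonest value set to 1. The 2 lower genes were Tm4sf4 and Slc7a2, an amino acid transporter gene. Against hepatocytes 1 was higher in beta cells, Ttr, the transthyretin gene, and 0 were lower. In hepatocytes against endoderm 3 were lower and 0 higher. Among all genes, 15.1% were lower and 14.1% higher in beta cells than in endoderm. The shares were 13.1% and 12.5% for beta cells against hepatocytes, and 13.3% and 12.8% for hepatocytes against endoderm. Ratios of the 5 genes in beta cells ran from 0.20 at Tm4sf4 to 8.09 at Pou3f4, and 1 of the 5, Pou3f4, was in the top 5% there.

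The Iroquois family has 6 genes in mouse, in a cluster of Irx1, Irx2 and Irx4 and another of Irx3, Irx5 and Irx6. All 6 were in the top 5% of genes in beta cells and in hepatocytes, and 5 of 6, all but Irx1, in endoderm. The 4 genes outside the member list had ratios of 4.75 to 6.24 in beta cells, 3.56 to 8.48 in hepatocytes and 3.78 to 6.23 in endoderm. None of the 6 reached the threshold between beta cells and hepatocytes, nor between beta cells and endoderm. In hepatocytes against endoderm 1, Irx1, did so as higher, beside 12.8% higher and 13.3% lower among all genes. The all-gene shares higher and lower were 12.5% and 13.1% for beta cells against hepatocytes, and 14.1% and 15.1% against endoderm. With the commonest value set to 1, 2 of 6 were higher in beta cells and 2 of 6 in hepatocytes, each against endoderm, beside 23.4% and 21.4% of all genes. High ratios were thus seen across the family and not at Irx1 and Irx2 alone.

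Neurog3 was unlike its closest relatives in endoderm. Neurog1, which acts in neural progenitors, had 5.62 in beta cells, 5.89 in hepatocytes and 118 in endoderm, and Neurog2 had 7.10, 7.46 and 89.1. Between the adult cell types both differed by -0.07, against -0.94 for Neurog3. Of the 9 proneural bHLH genes other than Neurog3, 1 was lower in beta cells than in hepatocytes, Neurod1, and 0 were higher. Among all genes the shares were 13.1% and 12.5%. Against endoderm, 6 of the 9 were lower and 2 higher in beta cells, beside 15.1% and 14.1% of all genes. In hepatocytes 5 were lower and 3 higher than in endoderm, beside 13.3% and 12.8%. Endoderm ratios of the 9 reached 208 at Atoh1, whose percentile of 99.8 there was not far from the 99.1 of Neurog3.

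In the PAX family, Pax4 had one of the lower ratios in beta cells, above Pax6 and Pax8. Pax6, needed for all islet cell types, had 0.26 in beta cells, 4.74 in hepatocytes and 5.34 in endoderm. Pax4 was thus the more marked of this pair in beta cells and the less marked in hepatocytes and endoderm. Pax8, a kidney and thyroid factor, had 1.14, 1.34 and 1.34. The 8 other family members had medians of 3.11 in beta cells, 3.05 in hepatocytes and 2.24 in endoderm.

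**Figure D3:**
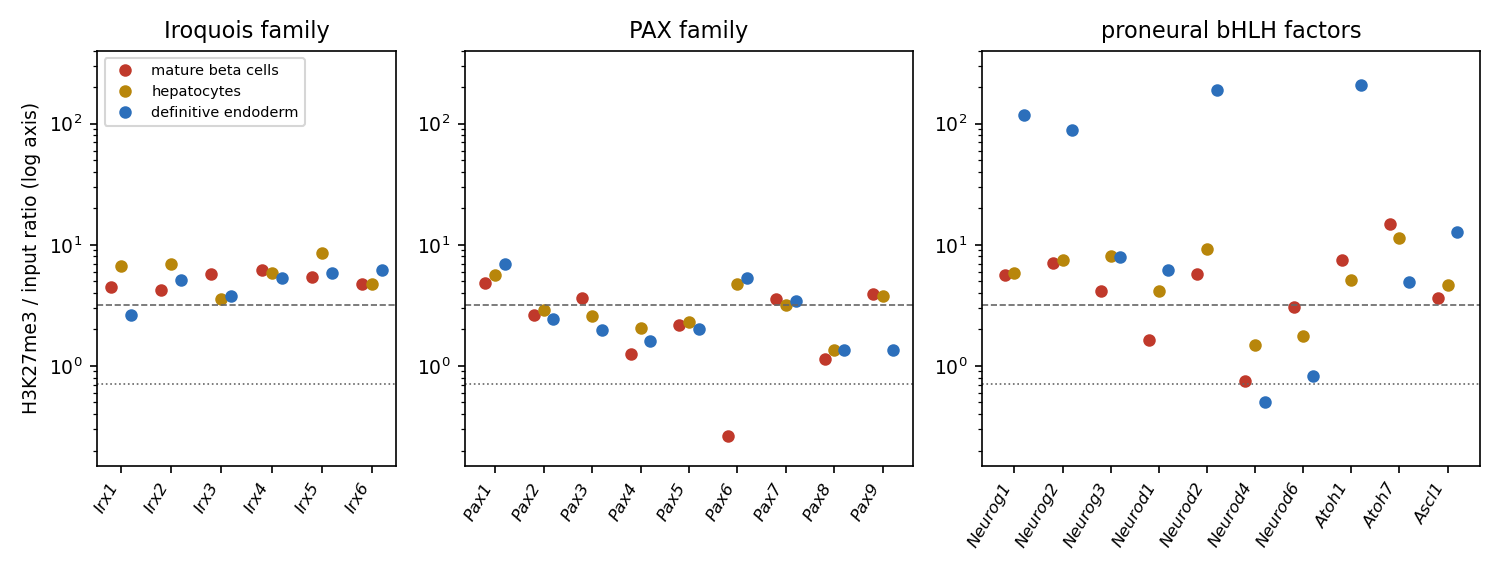
Ratios of H3K27me3 to input (log axis) in the Iroquois, PAX and proneural bHLH genes in mature beta cells, hepatocytes and definitive endoderm, 1 pooled value per point. The dashed line is the 95th percentile of all genes (3.18) and the dotted line the median (0.711). All 6 Iroquois genes lie above the dashed line in both adult cell types, and Pax6 in beta cells is the lowest point at 0.26.

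Fev directs serotonin synthesis and transport in neurons, and 9 genes of that program were looked up. In beta cells 2 of them were higher and 1 was lower against endoderm, and again 2 and 1 against hepatocytes. In hepatocytes against endoderm 1 was higher and 0 were lower. The all-gene shares higher and lower were 14.1% and 15.1% for beta cells against endoderm, and 12.5% and 13.1% against hepatocytes. For hepatocytes against endoderm they were 12.8% and 13.3%, so the counts of this list are near the background. Slc6a4, the serotonin transporter, had 2.35 in beta cells, 0.88 in hepatocytes and 1.09 in endoderm. Tph1, the enzyme that starts serotonin synthesis in pancreas and gut, had 1.40, 2.57 and 0.94. Lmx1b, a homeobox partner of Fev in serotonin neurons, had 0.82, 2.76 and 2.71. The 2 other genes of the ERG subfamily to which Fev belongs, Erg and Fli1, had 1.75 and 1.53 in beta cells, 1.41 and 1.45 in hepatocytes, and 0.81 and 1.66 in endoderm.

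H3K27me3 forms domains that can span several genes, so the 2 nearest listed genes on each side of a member were looked up by the gene order of GRCm38.p6. At the Fev locus, the flanking genes differed from Fev in beta cells. Cdk5r2, an activator of the kinase CDK5, had 0.47 in beta cells, 9.20 in hepatocytes and 10.6 in endoderm. Cryba2, a crystallin gene on the other side of Fev, had 0.44, 6.84 and 5.40. Fev, with 3.85 in beta cells, thus lay between 2 genes that were under the median of all genes there and in the top 5% in hepatocytes and endoderm. Beyond Cdk5r2, the ligand gene Wnt10a had 4.13, 4.27 and 6.65. Beyond Cryba2, Mir375, which encodes an islet microRNA, had 0.02 in beta cells, 0.95 in hepatocytes and 1.50 in endoderm. Its beta cell value was near the floor, at the 1.15th percentile and under the pseudocount of 0.0711. Near-floor values were also seen at another microRNA gene, Mir466f-4 near Irx1, with 0.01 in hepatocytes and 0.09 in endoderm. Its beta cell value of 0.93 was the most frequent value of that column.

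Around Neurog3 the neighbours had lower ratios than the gene itself. The nearest genes were Gm5424, a pseudogene with 3.12 in beta cells, 1.45 in hepatocytes and 1.93 in endoderm, and Tspan15, which encodes a tetraspanin, with 0.41, 0.71 and 0.98. Neither was in the top 5% in any of the 3 cell types. Next to them, the collagen gene Col13a1 had 1.93, 1.78 and 1.42. On the other side Mir7662 had the most frequent value of each column (0.93, 0.92 and 1.27), which 430 genes share in beta cells, 357 in hepatocytes and 346 in endoderm. Around Pax4, all 4 neighbours (Arf5, Fscn3, Snd1 and Lrrc4) had lower ratios than Pax4 itself in each cell type, with Fscn3, an actin-bundling gene, nearest to it at 0.91, 0.89 and 1.01.

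Irx1 and Irx2 are neighbours, with 1 listed transcript between them. Gm20554, a long noncoding RNA gene that overlaps Irx2, had 4.87 in beta cells, 6.09 in hepatocytes and 3.60 in endoderm, and its reads may not be separable from those of Irx2. Past Irx2, the noncoding RNA genes D730050B12Rik (3.24, 1.89 and 1.11) and 4930555K05Rik (1.62, 1.32 and 0.74) had their highest ratios in beta cells. The difference between beta cells and hepatocytes thus had the other sign there than at Irx1 and Irx2. On the outer side of Irx1, 8030423J24Rik had 0.98, 0.76 and 1.09, and Mir466f-4 had 0.93, 0.01 and 0.09, so no high ratio was seen there. The Mir466f-4 values were the most frequent value of the beta cell column or near the floor, and say little.

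**Figure D4:**
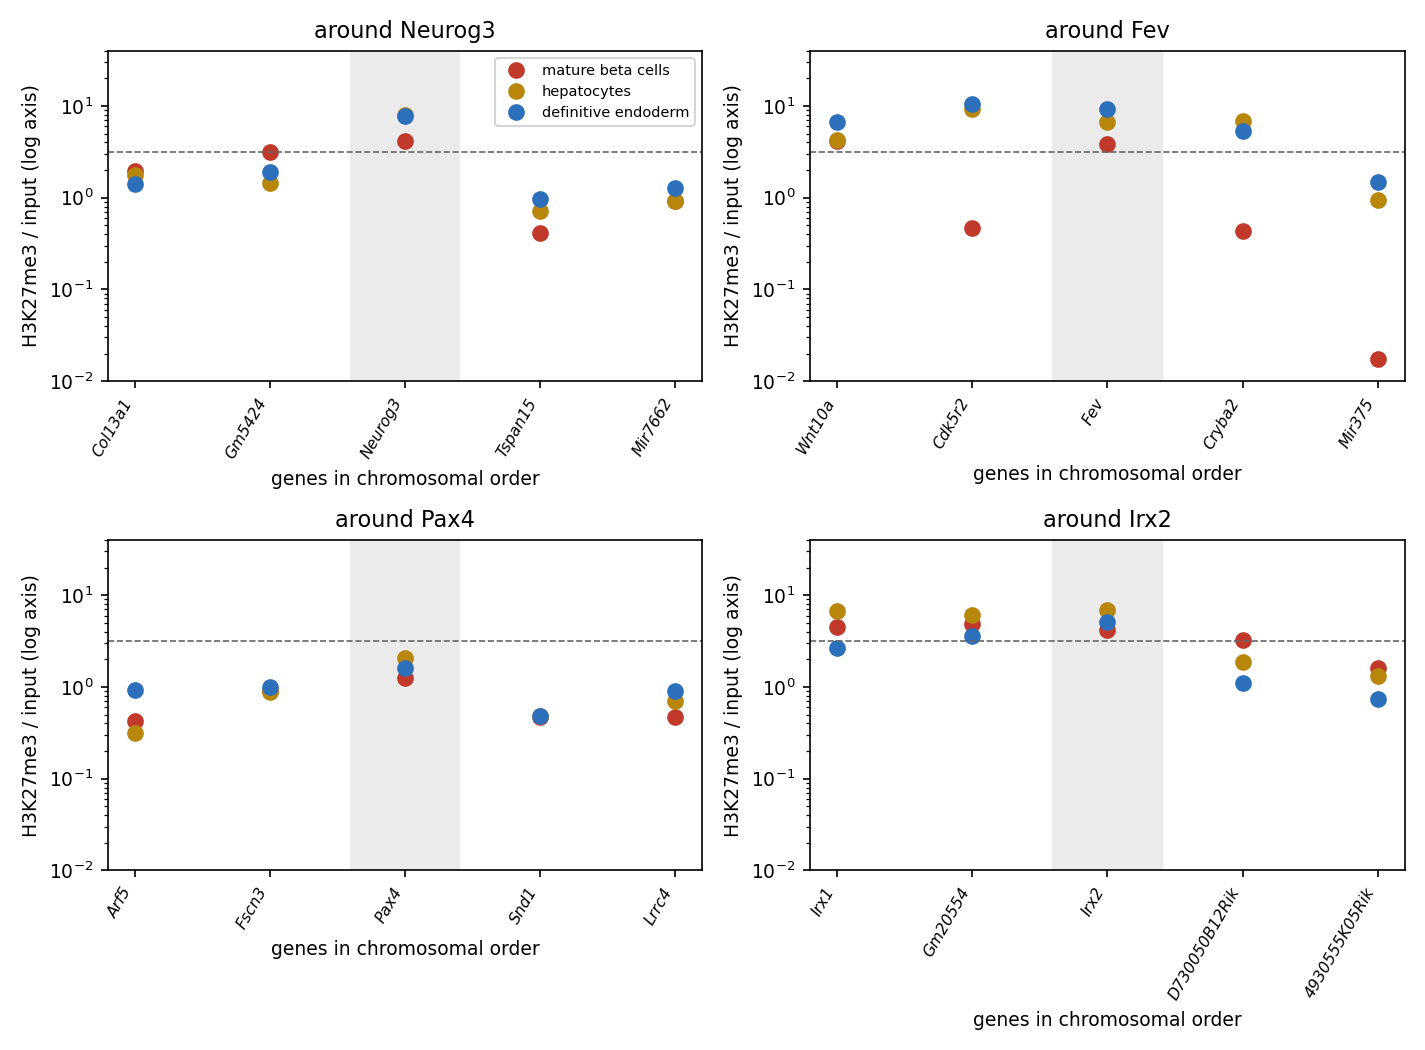
Ratios of H3K27me3 to input (log axis) for Neurog3, Fev, Pax4 and Irx2 (shaded) and the 2 nearest listed genes on each side, in chromosomal order and not to distance, in mature beta cells, hepatocytes and definitive endoderm. The dashed line is the 95th percentile of all genes (3.18). In beta cells Fev, at 3.85, stands between Cdk5r2 at 0.47 and Cryba2 at 0.44, while hepatocytes and endoderm are above the line at all 3 genes.

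The genes most like each member were found by the Euclidean distance over the 3 log2 values, without unnamed gene models, microRNAs and snoRNAs. The genes near Neurog3 included the homeobox genes Hoxb9 (0.18) and Dlx2 (0.25). Nearest to Fev were Adra2c (0.11), Cilp2 (0.17) and Prdm13 (0.18), and those near Irx2 included Hoxc5 (0.08) and Fam181b (0.34). Irx1 had Kis2 (0.29), Cd70 (0.33) and Prss16 (0.34), and Pax4 had Tgfb1i1 (0.06), Krt85 (0.07) and Ccnb3 (0.11). Among the members, Neurog3 and Fev were closest to each other (0.37), and Neurog3 and Pax4 were furthest apart (3.40). With 3 values per gene, such likeness describes these profiles only.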

How the data were processed

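Ratios of H3K27me3 to input from 3 cell types were used, and the 36 libraries for H3K9me3 were left out because they measure another mark. The submitters' processing notes name Bowtie2 2.1.0, bedtools and the mm9 build. The deposited values are ratios of H3K27me3 to input, quantile-normalized by the authors, per the labels; that they are linear ratios and not differences was read from the values, which are never negative. The sources used here do not state the region measured per gene, how libraries were combined, or any constant added. Each gene had 1 pooled value per cell type, so the planned description replaced a test. The log2 differences used a pseudocount of 0.0711, 10 times below the median, which shrinks differences of low ratios. Calculations used Python 3.11.15, pandas 2.3.3 and NumPy 2.4.6, and were tested on simulated data. Members, gene lists, thresholds and alternatives were chosen with earlier results of these data known, and the X-linked list was written by hand after them. Gene lists were also counted with each column divided by its commonest value, an alternative chosen after seeing the data. Named are all members, genes of these lists, up to 3 of the most similar genes and the 2 nearest neighbours on each side; a few genes that this rule and the lists would include are not reported here and are left out of the list counts. Symbols were matched to RefSeq GRCm38.p6, where 23412 matched directly, 946 through a synonym and 108 not. Percentiles are ranks among the 24466 genes.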

Additional observations from a re-analysis of the deposited data

How the results depend on the processing

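No paired analysis was possible because the table has 1 pooled value per cell type, and leaving out replicates could not be run for the same reason. The counts of members did not differ with a pseudocount 10 times smaller or larger. They were also the same among genes above the median level and without small RNA genes. Those 2 settings could not change them, because the members kept the same values and the same pseudocount. With rank percentiles and a threshold of 25 points, beta cells against endoderm had 0 members lower and hepatocytes against endoderm had 0 higher. Among all genes the shares were 17.9% and 15.5%. The count of 0 higher was fixed in advance, because the lowest endoderm percentile of a member was 82.8 (Pax4), too high for a rise of 25 points. Counts of 0 were also found in these comparisons with a 3-fold threshold, beside 7.8% of all genes lower and 6.7% higher. With a threshold of 0.5, beta cells had 1 member higher and 2 lower against endoderm, and 5 lower against hepatocytes, beside 26.8% of all genes higher and 27.4% lower against endoderm and 23.4% lower against hepatocytes. With each column divided by its most frequent value, beta cells against endoderm had 1 member higher and 0 lower. Among all genes 23.4% were higher and 9.6% lower on that scale. The differences of Pax4 (0.089) and Irx2 (0.15) changed sign. The cause of these shifts was not tested. Without replicates or depth, the error of each ratio is unknown.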
